A study of Homo sapiens with 4 samples.

Results

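The cathepsins described here are 10 lysosomal protease genes, CTSA, CTSB, CTSC, CTSD, CTSF, CTSH, CTSK, CTSL, CTSO and CTSZ, found by symbol among the 17902 genes of a deposited RNA-seq table. The set was chosen from the family name and from a measured value: CTSO was picked because its counts were lower in cells overexpressing ETV5. That difference is therefore given below as a description, with no test. RNA was measured in LNCaP, an established prostate carcinoma line, as 2 libraries labelled with an ETV5 overexpression genotype (ETV5_OE) and 2 libraries labelled WT (Control). ETV5 is an ETS family transcription factor. The labels name no vector, promoter, clone or time for the overexpression. They do not say what separates replicates, and the ETV5_OE library names share a stem, so the errors and p-values below cover library-to-library spread alone, possibly a technical one.

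Cathepsins are made as inactive precursors, carried to the lysosome largely by mannose 6-phosphate receptors, and activated there in the acidic lumen. Of the 10 genes, 8 encode papain-like cysteine proteases, while CTSD encodes an aspartic protease and CTSA a serine carboxypeptidase. Cystatins and stefins are natural inhibitors of the cysteine cathepsins. In prostate and other tumours, cathepsins that leave the lysosome are known for cutting matrix proteins.

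Library totals ranged from 20639543 to 30227070 counts. ETV5 stood at 23.9 and 21.8 CPM (the count per gene scaled to library size by TMM) in ETV5_OE, against 0.718 and 1.29 CPM in Control, the direction the labels give. All 10 luminal prostate markers listed were measured, and together they made up 6072 and 6700 CPM in ETV5_OE, against 8305 and 8903 CPM in Control. None of the 10 was called, beside 0.401% of all genes tested (65 of 16194). Of the 10, 5 had an unadjusted edgeR p under 0.05, beside 7.14% of all genes tested (1156 of 16194). Among the 5 was the androgen-regulated protease KLK3, with 2105 and 2396 CPM in ETV5_OE, against 3427 and 3732 CPM in Control. The markers did not all go one way: 7 had a log2 fold change below 0 and 3 above it. The keratin KRT18 had 368 and 378 CPM in ETV5_OE, against 337 and 349 CPM in Control, and KRT8 and FOLH1 had log2 fold changes of 0.21 (SE 0.17) and 0.02 (SE 0.16). Of 8 stromal markers, 5 were measured, and their summed level was 87.9 and 13.6 CPM in ETV5_OE, against 14.8 and 14.1 CPM in Control. In ETV5_OE replicate 1 most of that sum came from 3 collagen genes, COL1A2 at 41.4 CPM, COL1A1 at 27.0 CPM and COL3A1 at 15.5 CPM. In ETV5_OE replicate 2 they stood at 0.0835, 10.1 and 0.960 CPM. Of 10 macrophage markers CTSS alone was measured, and of 4 endothelial markers VWF alone. The table lists only genes with at least 1 read in every library, so the remaining markers are not analysed here.

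CTSO (gene ID 1519), a little-studied papain-like cysteine protease, had the largest difference of the 10 genes. It lies on chromosome 4 from 155924118 to 155953866 (GRCh38.p14, RefSeq), on the minus strand, and GENCODE v29 gives it 1 coding transcript of 8 exons. CTSO is also an older name of CTSK (gene ID 1513), and the deposited IDs keep the genes apart. Raw counts of CTSO were 20 and 11 in ETV5_OE, against 156 and 138 in Control. The exact Poisson intervals at 95%, which cover counting error only, were 12.2 to 30.9 and 5.49 to 19.7 counts in ETV5_OE, against 132 to 182 and 116 to 163 counts in Control.

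In CPM, CTSO stood at 0.896 and 0.459 in ETV5_OE, against 5.09 and 6.59 in Control. Its mean was 0.678 ± 0.309 CPM in ETV5_OE and 5.84 ± 1.06 CPM in Control (SD, n = 2 each). Both ETV5_OE libraries lay far below both Control libraries, and the ETV5_OE pair differed by 1.95-fold between themselves. The edgeR log2 fold change was -3.10 (SE 0.46). In the authors' deposited table the signed fold of CTSO was -2.39, on quantile-normalized log2(FPKM + 1), where the added 1 shrinks the fold of a gene at this level. The summed luminal markers were lower in both ETV5_OE libraries and the summed stromal markers higher in ETV5_OE replicate 1, as given above. Their part in the CTSO difference was not tested. In bulk RNA, fewer cells with CTSO and less CTSO RNA per cell cannot be told apart.

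**Figure D1:**
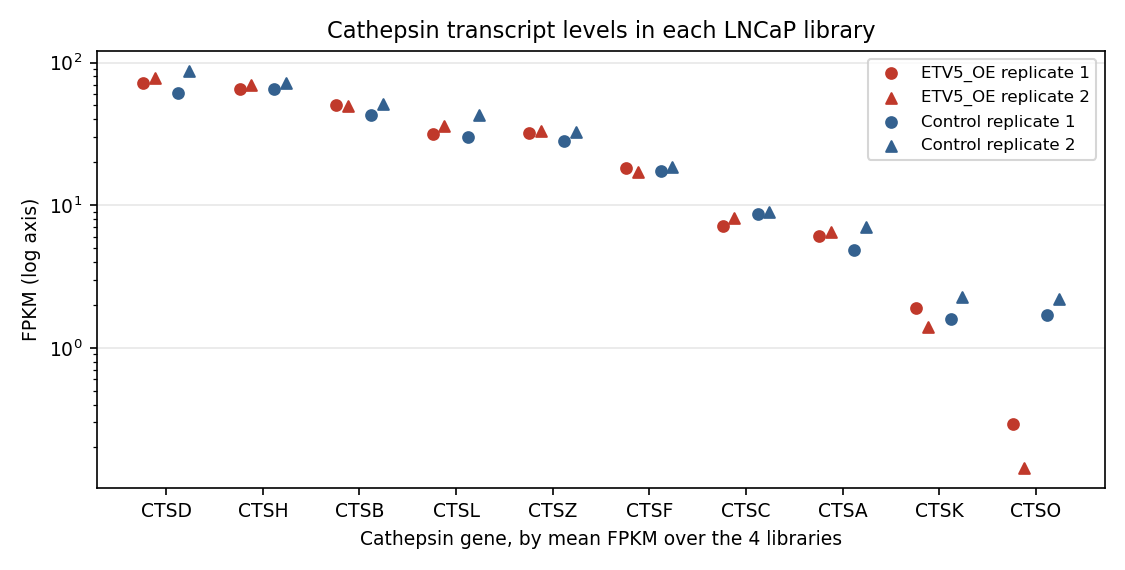
FPKM of each cathepsin gene (log axis) in the 2 ETV5_OE libraries (red) and the 2 Control libraries (blue), genes ordered by mean. CTSO is at 0.291 and 0.144 FPKM in ETV5_OE, against 1.69 and 2.19 FPKM in Control.

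Levels per transcript length, in the deposited FPKM, placed the family over a wide range. CTSD, the aspartic protease, and CTSH, an aminopeptidase, were the most abundant. CTSD had 72.3 and 77.7 FPKM in ETV5_OE, against 61.0 and 87.8 FPKM in Control. CTSH had 64.9 and 69.4 FPKM in ETV5_OE, against 65.0 and 72.3 FPKM in Control. Their values overlapped, so their order is not fixed. CTSB, an endopeptidase that also removes dipeptides, came next with 50.1 and 49.2 FPKM in ETV5_OE, against 43.2 and 51.6 FPKM in Control. CTSL, a broad endopeptidase, had 31.5 and 36.1 FPKM in ETV5_OE, against 30.0 and 42.7 FPKM in Control. CTSZ, a carboxypeptidase, had 32.1 and 33.0 FPKM in ETV5_OE, against 28.0 and 32.8 FPKM in Control, and overlapped with CTSL.

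The remaining genes were lower. CTSF, an endopeptidase whose loss causes a neuronal storage disease, had 18.2 and 17.2 FPKM in ETV5_OE, against 17.5 and 18.4 FPKM in Control. CTSC, which activates granule serine proteases in immune cells, had 7.13 and 8.12 FPKM in ETV5_OE, against 8.73 and 9.01 FPKM in Control. CTSA, which also protects lysosomal beta-galactosidase and neuraminidase, had 6.06 and 6.52 FPKM in ETV5_OE, against 4.86 and 7.06 FPKM in Control. Each of these 3 genes kept its place in the order in all 4 libraries, although the margin between CTSC and CTSA across libraries was narrow (lowest CTSC 7.13 FPKM, highest CTSA 7.06 FPKM).

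At the bottom stood CTSK and CTSO. CTSK, the collagen-cutting protease of osteoclasts, had 1.91 and 1.39 FPKM in ETV5_OE, against 1.59 and 2.28 FPKM in Control. In Control the values of CTSK and CTSO overlapped, with CTSO above CTSK in replicate 1 and below it in replicate 2. In ETV5_OE, CTSO was below CTSK in both libraries. In CPM, CTSK stood at 3.27 and 2.46 in ETV5_OE, against 2.71 and 3.87 in Control, and the groups overlapped. The part of the stromal markers, high in ETV5_OE replicate 1, in the CTSK level was not tested.

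Summed over the 10 genes, the cathepsins reached 284 and 299 FPKM in ETV5_OE, against 262 and 326 FPKM in Control. CTSO made up 0.102% and 0.0481% of that sum in ETV5_OE, against 0.647% and 0.672% in Control. The exopeptidases CTSC, CTSH and CTSZ together gave 104 and 110 FPKM in ETV5_OE, against 102 and 114 FPKM in Control. The endopeptidases CTSF, CTSK, CTSL and CTSO together gave 51.8 and 54.8 FPKM in ETV5_OE, against 50.8 and 65.6 FPKM in Control. All these sums overlapped between the groups.

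None of the other 9 cathepsins was called. Of the 10 genes, 1 was called at an adjusted p under 0.05 (CTSO), beside 0.401% of all genes tested (65 of 16194). The choice of CTSO fixed that count, and nothing is read from it. CTSO lost its place among the called genes in 8 of 12 alternative settings. Of the 9 others, edgeR called 0, DESeq2 called 0 and limma on FPKM called 0. An unadjusted edgeR p under 0.05 was found for 0 of them, beside 7.14% of all genes tested. The smallest adjusted p among them was 0.914 (edgeR), for CTSC. Their median log2 fold change was 0.05, with 6 above and 3 below 0, beside a median of 0.00436 over all genes tested.

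Their fitted folds, ETV5_OE over Control, ran between 0.875 for CTSK and 1.10 for CTSZ. CTSZ had 50.6 and 53.4 CPM in ETV5_OE, against 43.5 and 50.8 CPM in Control, with a 95% interval of the fold of 0.861 to 1.41. CTSB had 197 and 205 CPM in ETV5_OE, against 171 and 201 CPM in Control, with an interval of 0.863 to 1.36. The interval was 0.866 to 1.33 for CTSH, 0.792 to 1.29 for CTSF, 0.768 to 1.40 for CTSD and 0.763 to 1.56 for CTSA. It was 0.692 to 1.23 for CTSL and 0.643 to 1.20 for CTSC. CTSK, with the fewest reads of these, had the widest interval, 0.468 to 1.64. With 2 libraries a group, folds within these intervals were not excluded.

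**Figure D2:**
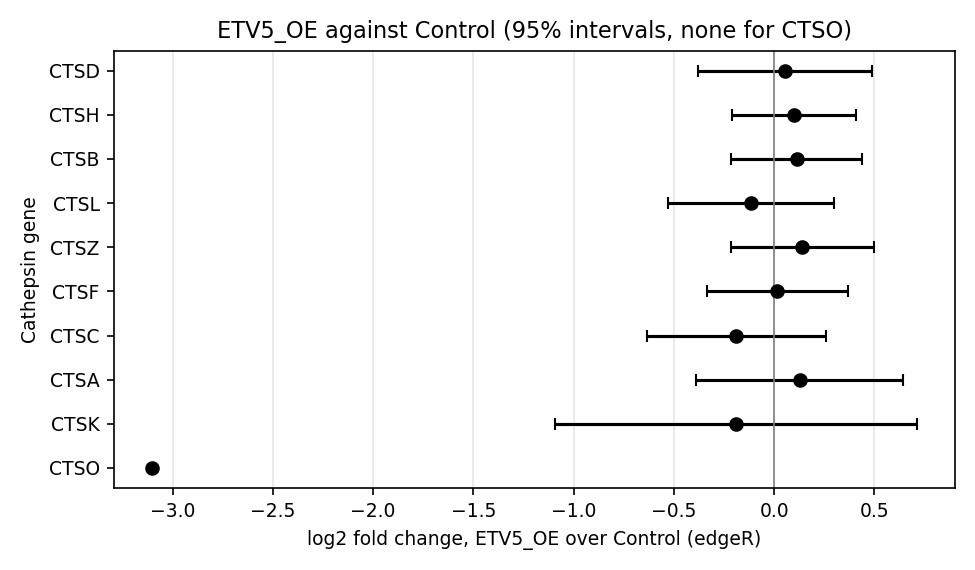
The edgeR log2 fold change of each cathepsin gene, ETV5_OE over Control (points), with 95% intervals for the 9 genes other than CTSO. Those intervals all include 0, while CTSO is at -3.10.

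Groups did not overlap in CPM for 3 of the 10 genes, CTSO and CTSC below and CTSH above, beside 37.6% of all genes tested. CTSC had 14.7 and 16.9 CPM in ETV5_OE, against 17.4 and 18.6 CPM in Control. CTSH had 121 and 134 CPM in ETV5_OE, against 120 and 119 CPM in Control. In FPKM the CTSH groups overlapped. The authors' deposited table gave the 9 genes signed folds between -1.13 (CTSC) and 1.08 (CTSA).

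For several genes the Control libraries differed more from each other than the groups did. The higher over the lower Control library was 1.44-fold for CTSA, 1.44-fold for CTSD, 1.43-fold for CTSK and 1.33-fold for CTSL in CPM. In the ETV5_OE pair the same ratios were 1.11, 1.10, 1.33 and 1.17. Control replicate 2 was above Control replicate 1 for 9 of 10 cathepsins, beside 51.1% of all genes, with a median ratio of 1.23 over the 10 and 1.01 over all genes. ETV5_OE replicate 2 was above replicate 1 for 7 of 10, beside 50.1% of all genes, with median ratios of 1.08 and 1.0008. CTSO was on the high side in Control replicate 2 and on the low side in ETV5_OE replicate 2.

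The number of reads per FPKM moves with the transcript length that the authors' quantification used for a gene. It is scaled here to each library's typical gene and then to the gene's own median. For CTSO it was 1.0045 and 1.0144 in ETV5_OE, against 0.994 and 0.996 in Control. CTSO was thus lower in reads and in FPKM alike. The ratio was steadiest for CTSD, CTSF and CTSZ, whose highest over lowest values were 1.0004, 1.0017 and 1.0003.

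In CTSH and CTSL a Control library stood apart by this measure. CTSH was at 0.998 and 1.0057 in ETV5_OE, against 1.0024 in Control replicate 1 and 0.889 in Control replicate 2. CTSL was at 0.998 and 0.989 in ETV5_OE, against 1.0694 in Control replicate 1 and 1.0018 in Control replicate 2. The highest over lowest ratios, 1.13 and 1.08, were at percentiles 81.5 and 73.3 of 11069 genes with at least 100 reads in every library, so shifts of this size are common. The table lists 9 RefSeq transcripts for CTSH and 8 for CTSL, against 1 for CTSO.

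**Figure D3:**
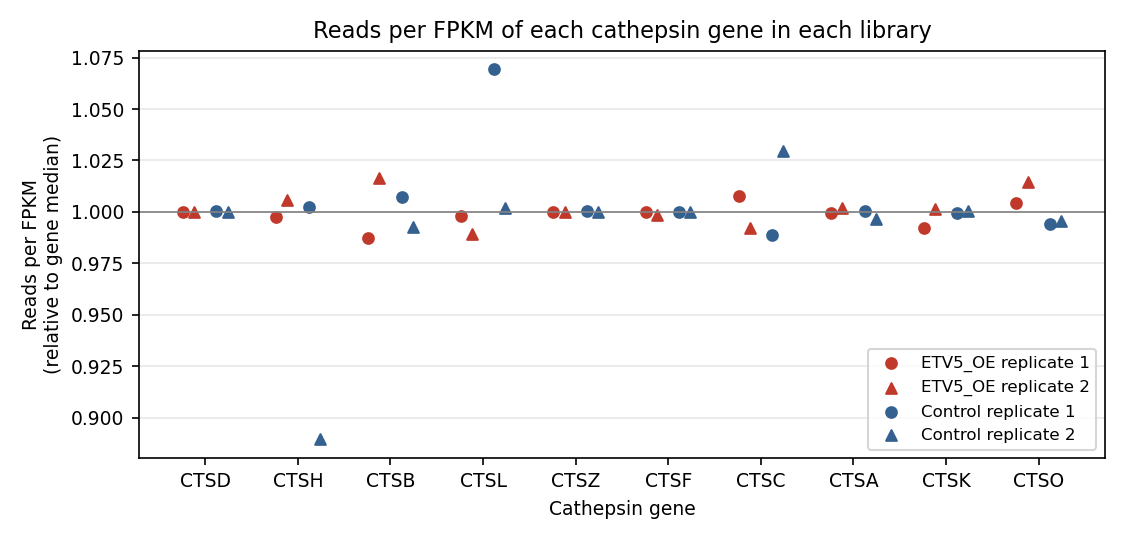
Reads per FPKM of each cathepsin gene in the 2 ETV5_OE libraries (red) and the 2 Control libraries (blue), relative to the gene's median. CTSH in Control replicate 2, at 0.889, and CTSL in Control replicate 1, at 1.0694, lie farthest from 1.

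Of 6 further cathepsin genes listed, 3 were measured. CTSV, the closest relative of CTSL and known from thymus and testis, had 19.8 and 22.4 CPM in ETV5_OE, against 27.1 and 14.5 CPM in Control. Its Control values lay on either side of the ETV5_OE values. CTSS, a cathepsin of antigen-presenting cells, had 1.84 and 2.55 CPM in ETV5_OE, against 1.37 and 4.15 CPM in Control. Neither passed the test (edgeR adjusted p = 0.996 and 0.959). NAPSA, an aspartic protease of lung and kidney, had 4 and 10 counts in ETV5_OE, against 4 and 5 counts in Control, and was too low to test. CTSL and CTSV are paralogs, and counts shared between them depend on how the reads were assigned.

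Of the proteins that restrain cysteine cathepsins, none passed the test. Of 13 inhibitor genes listed 4 were measured, and edgeR called 0, beside 0.401% of all genes tested. Only 1 had an unadjusted edgeR p under 0.05, beside 7.14% of all genes tested. That gene was CSTA, stefin A, with 1.88 and 1.29 CPM in ETV5_OE, against 0.196 and 0.286 CPM in Control (log2 fold change 2.72, SE 0.62, adjusted p = 0.204). CSTB, stefin B, had 22.9 and 29.8 CPM in ETV5_OE, against 19.1 and 30.0 CPM in Control. CST3, the secreted cystatin C, had 43.4 and 54.6 CPM in ETV5_OE, against 48.1 and 50.8 CPM in Control. KNG1, a plasma kininogen that carries cystatin domains, had 1.08 and 4.63 CPM in ETV5_OE, against 3.78 and 4.10 CPM in Control. The abundant inhibitors CSTB and CST3 overlapped between the groups.

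No gene of the machinery that brings cathepsins to the lysosome was called. All 19 sorting and activation genes listed were tested and 0 were called, beside 0.401% of all genes tested. At an unadjusted edgeR p under 0.05 there were 0, beside 7.14% of all genes tested. Their median log2 fold change was -0.01. IGF2R, the large mannose 6-phosphate receptor, had 438 and 412 CPM in ETV5_OE, against 390 and 311 CPM in Control (adjusted p = 0.807). GRN, the progranulin precursor that binds cathepsin D, had 62.4 and 75.2 CPM in ETV5_OE, against 51.4 and 58.5 CPM in Control (adjusted p = 0.766). LGMN, the asparaginyl protease that processes cathepsin precursors, had 116 and 116 CPM in ETV5_OE, against 135 and 126 CPM in Control (adjusted p = 0.880).

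Other listed lysosomal enzymes and membrane proteins had no calls. Of 40 genes tested in the list of further hydrolases, not all of them hydrolases, 0 were called, beside 0.401% of all genes tested. Of the 40, 2 had an unadjusted edgeR p under 0.05, beside 7.14% of all genes tested. Their median log2 fold change was 0.07. ASAH1, acid ceramidase, had 154 and 153 CPM in ETV5_OE, against 116 and 124 CPM in Control (adjusted p = 0.581). PRCP, a carboxypeptidase, had 49.5 and 42.2 CPM in ETV5_OE, against 56.3 and 71.3 CPM in Control (adjusted p = 0.581). For both genes the groups did not overlap, beside 37.6% of all genes tested, and the differences did not pass. CTBS, chitobiase, had a log2 fold change of -0.35 (SE 0.15).

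Of 22 genes tested in the lysosomal membrane protein list, not all of them membrane proteins, 0 were called, beside 0.401% of all genes tested. Of the 22, 2 had an unadjusted edgeR p under 0.05, beside 7.14% of all genes tested. Their median log2 fold change was 0.06. NPC1, the cholesterol exporter, had 74.0 and 63.7 CPM in ETV5_OE, against 135 and 94.3 CPM in Control (log2 fold change -0.74, SE 0.19, adjusted p = 0.326). Without Control replicate 2 NPC1 passed (adjusted p = 0.0242), and leaving out any other library gave no call. CD68, a lysosomal glycoprotein, had 9.10 and 16.9 CPM in ETV5_OE, against 5.71 and 8.45 CPM in Control (adjusted p = 0.664). Of 20 V-ATPase subunits, which acidify the lumen, 0 were called, beside 0.401% of all genes tested, and their median was 0.02. ATP6V0E2 alone had an unadjusted p under 0.05, beside 7.14% of all genes tested. It had 75.4 and 75.0 CPM in ETV5_OE, against 113 and 86.0 CPM in Control (edgeR adjusted p = 0.655).

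None of the measured MiT/TFE transcription factors, which are known to drive lysosomal genes, was called, nor was any of their listed regulators. Of 17 MiT/TFE factors and regulators tested, 0 were called, beside 0.401% of all genes tested. At an unadjusted p under 0.05 (edgeR) there were 0, beside 7.14% of all genes tested, and the median log2 fold change was 0.06. TFEB, a master regulator of lysosomal genes, had 12.1 CPM in each ETV5_OE library, against 11.1 and 8.68 CPM in Control (log2 fold change 0.29, SE 0.23). TFE3 and MITF had log2 fold changes of 0.20 (SE 0.17) and -0.17 (SE 0.21). FLCN, which holds these factors in the cytoplasm, had 46.8 and 53.2 CPM in ETV5_OE, against 39.4 and 39.0 CPM in Control (adjusted p = 0.702).

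Among 15 autophagy genes tested, SQSTM1 was the 1 called, beside 0.401% of all genes tested (65 of 16194), and it was higher. SQSTM1 encodes p62, a receptor that carries ubiquitinated cargo into autophagosomes and is degraded with it in the lysosome. It had 1788 and 2179 CPM in ETV5_OE, against 860 and 868 CPM in Control. The groups were far apart, at 1983 ± 276 CPM in ETV5_OE and 864 ± 6.12 CPM in Control (SD, n = 2 each). Its log2 fold change was 1.20 (SE 0.16) with an edgeR adjusted p of 0.0274. The call was lost without ETV5_OE replicate 1 (adjusted p = 0.139) or replicate 2 (0.239), without robust estimation (0.0617), with the replicate block (0.0674) and with limma on FPKM (0.167 to 0.261). The log2 fold change stayed between 1.04 and 1.33 in every setting run. ATG9B, with 1.88 and 1.0019 CPM in ETV5_OE, against 0.750 and 0.239 CPM in Control, did not pass (adjusted p = 0.732).

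**Figure D4:**
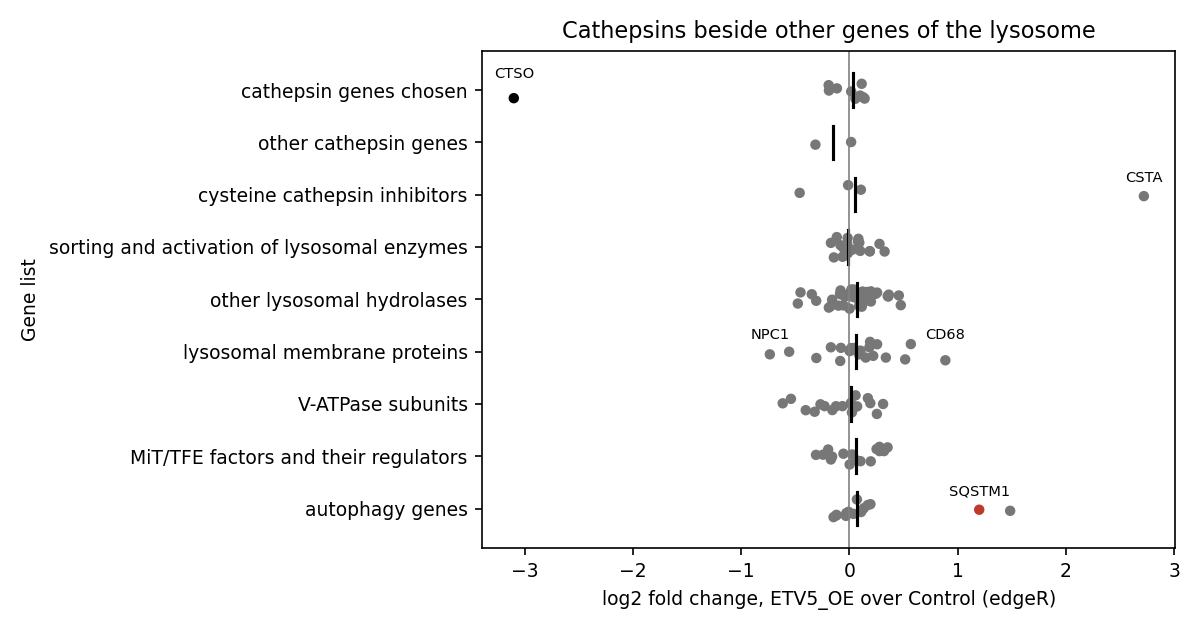
The edgeR log2 fold change, ETV5_OE over Control, of each gene tested in the cathepsin set and 8 lists of related genes (points; vertical bars are list medians; vertical position within a list is scatter only). SQSTM1 (red) is the called gene of the related lists, CTSO (black) is at -3.10, and grey genes were not called.

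Over all 8 lists, 1 of 139 genes tested was called, beside 0.401% of all genes, and 136 had a fold smaller than 2 in either direction. The median log2 fold change was 0.04 over the 139 genes and 0.00436 over all genes tested.

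No measured gene near CTSO on chromosome 4 was called. The nearest measured genes on the lower side encode subunits of soluble guanylate cyclase, the nitric oxide receptor. GUCY1B1, 116 kb away, had 6.99 and 8.22 CPM in ETV5_OE, against 4.44 and 2.39 CPM in Control (log2 fold change 1.15, SE 0.37, adjusted p = 0.467). GUCY1A1, 187 kb away, had 100.2 and 102 CPM in ETV5_OE, against 149 and 207 CPM in Control (log2 fold change -0.82, SE 0.18, adjusted p = 0.160). In each gene the groups did not overlap, beside 37.6% of all genes tested, but the directions were opposite and neither passed. LOC105377503, a long noncoding RNA 475 kb away, had a log2 fold change of -1.16 (SE 0.49, adjusted p = 0.688).

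On the higher side PDGFC, a platelet-derived growth factor 807 kb away, had 2.20 and 0.584 CPM in ETV5_OE, against 1.34 and 1.62 CPM in Control. GASK1B and the antisense gene FAM198B-AS1, 2171 and 2217 kb away, had log2 fold changes of 0.48 (SE 0.28) and -0.16 (SE 0.32). These overlap on the chromosome, and no source used here gives the strand setting of the counting, so their reads may be mixed. RefSeq places 42 genes in the span of these neighbours, 9 of them protein coding.

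Of 13017 other protein-coding genes, 5 had the pattern most like CTSO over the 4 libraries. Likeness is the root mean square distance between log2 CPM values centred on each gene's mean. The nearest was the kinase gene MAPK13 at a distance of 0.342, with 0.628 and 0.334 CPM in ETV5_OE, against 6.69 and 5.20 CPM in Control. FLOT2, a membrane scaffold gene, followed at 0.403 and PCDHB11, a protocadherin of a gene family with close copies, at 0.432. TRPM8, a cold-sensing channel gene, was at 0.435 and the ephrin gene EFNB2 at 0.466. EFNB2 was far more abundant than CTSO, with 22.4 and 22.2 CPM in ETV5_OE, against 109 and 115 CPM in Control. All 5 were low in both ETV5_OE libraries, which is what this measure selects.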

How the data were processed

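RNA of 2 ETV5_OE and 2 Control LNCaP libraries was compared. Per the labels' protocols, TruSeq libraries of total RNA were read as paired ends on a NovaSeq. The submitters' processing notes name Trimmomatic, HISAT2, StringTie and hg38, with no roles or versions. Per the file headers, the authors deposited raw read counts and FPKM for each library. The deposited log2 group means equalled the means of quantile-normalized log2(FPKM + 1). The deposited signed fold, negative where ETV5_OE is lower, is used as a score. The deposited p-value is unadjusted per the file headers, with no test named.

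The counts went into edgeR 4.0.16 (R 4.3.3), with its default expression filter (minimum count 10, 16194 of 17902 genes kept), TMM scaling, a robust quasi-likelihood F test and Benjamini-Hochberg adjustment over all genes tested, and a threshold of 0.05. Scripts were tested on simulated data. DESeq2 1.42.0 was an alternative. So was limma 3.58.1 with a pseudocount of 1 or 0.1 on FPKM, for genes reaching FPKM 1 in 2 libraries. Within pairs, counts varied 33.3 (ETV5_OE) and 44.3 (Control) times more than counting error, so no pair is a repeated deposit. Coordinates come from RefSeq (GRCh38.p14, the build of hg38), matched by gene ID for 17559 genes.

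The members and lists were chosen with earlier results of these data known. Named genes are the 10 members, the other cathepsin genes measured, ETV5, called genes and up to 3 genes with the smallest p in each list, the 3 measured genes nearest to CTSO on each side, and the 5 protein-coding genes most like CTSO by log2 CPM (prior count 2). COL1A1, COL1A2, COL3A1, KRT8, KRT18, FOLH1, CST3, TFEB, TFE3 and MITF were named after their values were seen.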

Additional observations from a re-analysis of the deposited data

How the results depend on the processing

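CTSO was no longer called in 8 of 12 settings. These were no count filter, no robust estimation, the replicate block, limma on FPKM, and leaving out ETV5_OE replicate 1 or 2. CTSO was picked for this difference, so neither the call nor its loss is a test. In the limma fits with a filter, CTSO reached FPKM 1 only in the Control libraries. Its sign, which the choice of the gene fixes, was the same in all 12 settings. Its log2 fold change, -3.10, was -1.27 with limma on log2(FPKM + 1), with or without the filter, a scale that compresses low genes. Leaving out each library gave -3.66 to -2.70. Over all genes, 65 calls became 223 with DESeq2, 22 without robust estimation, 13 and 11 when limma was run with a pseudocount of 1 and 0.1 on FPKM, 0 with limma and no filter (1243 at an unadjusted p under 0.05), 4 and 15 without ETV5_OE replicates 1 and 2, and 259 and 162 without Control replicates 1 and 2. The cause was not tested. Of the lysosomal lists, 1 gene was called, and 0 without robust estimation, with limma (0 on each scale and with no filter) and with the replicate block, and 0 to 2 with each library left out. No other cathepsin was called in any setting, although CTSF changed sign in 5 of 12, CTSH in 3, CTSD in 2 and CTSA, CTSK and CTSL in 1 each. RLE scaling and no count filter gave 65 and 56 calls.

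The replicate numbers are not known to pair the libraries: same-numbered libraries' deviations correlated at 0.0187 over genes. With the replicate block, the log2 fold change of CTSO was -3.12 and 55 genes were called. With 11 to 20 CTSO reads in ETV5_OE, depth limits how far the fold can be fixed.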
